A study of Mus musculus with 9 samples.

Results

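The synaptic vesicle and release machinery is taken here as 38 mouse genes for vesicle, SNARE, active zone and endocytosis proteins. They were listed by symbol and matched through GENCODE M21 to the Ensembl identifiers of the files. All 38 were found among 21853 genes, and all 38 passed the filter on low values (at least 10 in at least 3 libraries), which 15411 genes passed. Poly(A) RNA of brain was sequenced in 9 libraries, 3 per group. The group HD-WNT5B is N171-82Q mice that received an AAV with WNT5B, a P2A peptide and mCherry behind the GFAP promoter. The group HD-Control is N171-82Q mice that received a control AAV with mCherry behind the same promoter. The group WT-Control is wild-type mice, by its title, that received that control AAV. N171-82Q is a transgenic model of Huntington's disease in which a prion promoter drives an N-terminal fragment of human huntingtin with an expanded polyglutamine tract, mostly in neurons, and the GFAP promoter is used to direct expression to astrocytes. The labels give the tissue as brain with no region, the series text places the virus in the striatum, and neither sex nor age is labelled, nor which animal gave which library. The p-values therefore measure only the spread between libraries, which may be technical.

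Neurons store transmitter in synaptic vesicles, which dock at the active zone and fuse with the plasma membrane when calcium enters the terminal. The vesicle protein synaptobrevin (Vamp) and the plasma membrane proteins syntaxin and SNAP-25 zip into the SNARE complex that drives fusion. Munc13 and RIM proteins prepare vesicles for release, complexins clamp and promote the assembled complex, and synaptotagmins sense the calcium. After fusion, NSF and the SNAP adaptors take the complex apart, and dynamin, amphiphysin and synaptojanin act in the retrieval of the membrane. Mutant huntingtin is known to bind vesicle-associated proteins and to disturb transmitter release from cortical inputs to the striatum.

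The 3 HD-WNT5B libraries stood apart from the other 6. Their deposited values, which are normalized read counts, summed to 79.9 to 83.8 M, against 55.6 to 55.8 M in HD-Control and 54.6 to 54.7 M in WT-Control libraries. They held 37.3 to 52.1 M reads, against 69.8 to 90.6 M in HD-Control and 67.8 to 77.8 M in WT-Control, and 14291 to 14588 genes above 0, against 17223 to 17349 in HD-Control and 17027 to 17132 in WT-Control. The 38 genes together made up 1.95 to 2.12% of the summed values in HD-WNT5B, 1.48 to 1.49% in HD-Control and 1.67 to 1.69% in WT-Control libraries. The median SD of their log2 values was 0.141 in HD-WNT5B, 0.0135 in HD-Control and 0.017 in WT-Control libraries, with the widest spread for Syn3 in HD-WNT5B (0.748). Wnt5b, the gene named on the virus, read 184, 22.5 and 212 in HD-WNT5B, 63.8, 44.2 and 49.3 in HD-Control and 74.6, 63.8 and 57.7 in WT-Control libraries. The second HD-WNT5B library lay below every control library, and Wnt5b was not called (log2 0.88, SE 0.73, limma adjusted p = 0.298 against HD-Control). Whether the viral copy has the mouse sequence is not in the labels, and groups are named below as labelled.

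In HD-Control libraries 22 of the 38 genes were called against WT-Control (limma, Benjamini-Hochberg adjusted p under 0.05 over all genes tested), 19 lower and 3 higher. Of all genes tested, 45.1% were called, 20.7% lower and 24.5% higher, so the called share of the 38 genes (57.9%) stands near the 58.1% found among genes that average 1000 or more. Of the 38 genes 50% were lower and 7.89% higher, against 23.8 and 34.2% of genes at that level. Their median log2 fold change was -0.20, and that of all genes tested was 0.020. The largest falls were in Cplx3 (log2 -2.15) and Rims1 (log2 -1.25), the only genes of the group that fell at least 2-fold, as 5.75% of all genes tested did. None of the 38 rose 2-fold, as 4.46% of all genes did. In tissue RNA of this kind, fewer neurons and less RNA per neuron cannot be told apart.

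This count depended on how the spread was estimated, because the shared spread takes in the scattered HD-WNT5B libraries. Fitted without the HD-WNT5B libraries, 36 of the 38 genes were called, 24 lower and 12 higher, beside 84.4% of the 15241 genes tested there (40.5% lower and 43.9% higher). With a weight per group, 35 were called, 24 lower and 11 higher, beside 82.9% of all genes tested (39.9% lower and 43.1% higher). Among those given below as not called in the main fit, Syn3 and Pclo were then lower and Syt4 and Rab3a higher. Syp, Syt1 and Vamp1 were not called with these weights either. The HD-Control and WT-Control values did not overlap for 36 of the 38 genes, and for 84% of all genes tested. The plot of HD-Control against WT-Control shows the fitted change of each gene.

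**Figure D1:**
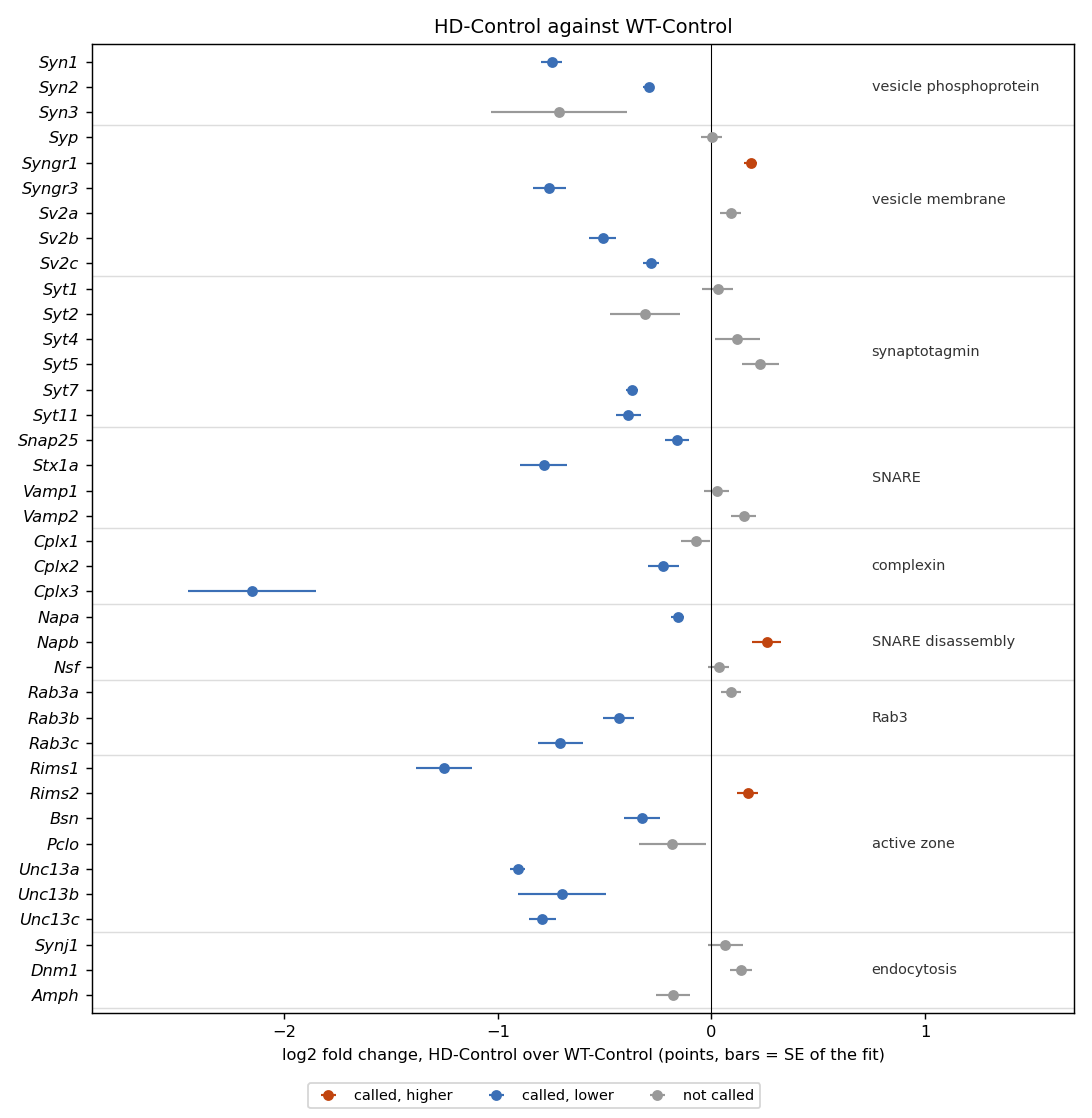
Log2 fold change of HD-Control over WT-Control for the 38 genes, grouped by role; bars are the standard error of the limma fit, and colour gives the call at adjusted p under 0.05. Of the 38 points, 19 are called lower, down to Cplx3 at -2.15, and 3 are called higher, up to Napb at 0.26.

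In HD-WNT5B libraries 37 of the 38 genes were called against HD-Control, 17 higher and 20 lower, beside 77.5% of all genes tested (35.8% higher and 41.7% lower) and 89.8% of genes that average 1000 or more (43.7% higher and 46.1% lower). The values of HD-WNT5B and HD-Control did not overlap for 37 of the 38 genes and for 78.7% of all genes. The median log2 fold change of the 38 genes was -0.24, against -0.23 for all genes tested. A change of at least 2-fold was called upward in 10 genes and downward in 9, where 23.6 and 28.8% of all genes tested were called at that size. Against WT-Control, 36 genes were called, 16 higher and 20 lower, beside 77.9% of all genes tested (35.9% higher and 42.1% lower). There 7 rose and 15 fell at least 2-fold, beside 23.9 and 29.4% of all genes, and 36 genes and 79.4% of all genes did not overlap. Scaling the libraries to equal totals lowered the median of all genes by 0.538 (log2) against HD-Control, and the split became 10 higher and 25 lower, beside 25.7% higher and 54.6% lower among all genes tested on that scale. It lowered the median by 0.556 against WT-Control, and the split there was also 10 higher and 25 lower, beside 25.7 and 55.5% of all genes. Without the HD-WNT5B library that was low in Wnt5b, 36 of the 38 genes were called against HD-Control, 17 higher and 19 lower. Over all genes 12532 were called in that fit, against 11942 with all libraries.

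Against HD-Control, 10 genes were called higher under all 23 alternative settings (22 for Cplx3, which is below the mean of 1000 that one of them requires), and they are the genes that rose at least 2-fold: Syn1, Syt4, Syt7, Syt11, Cplx2, Cplx3, Napa, Rab3a, Rab3c and Dnm1. Likewise 12 were called lower under all 23: Syn2, Syngr3, Sv2c, Syt1, Snap25, Stx1a, Vamp1, Nsf, Rims1, Unc13a, Synj1 and Amph. The share of all genes tested that kept their call under every setting was not computed. The counts of 10 and 12 therefore have no share to stand beside, and whether the machinery is steadier than other genes was not tested. The comparisons share their HD-Control and WT-Control libraries, so the calls of one are not independent of those of another, and each comparison's own values are given side by side below. The plot of all 9 libraries shows the values behind them.

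**Figure D2:**
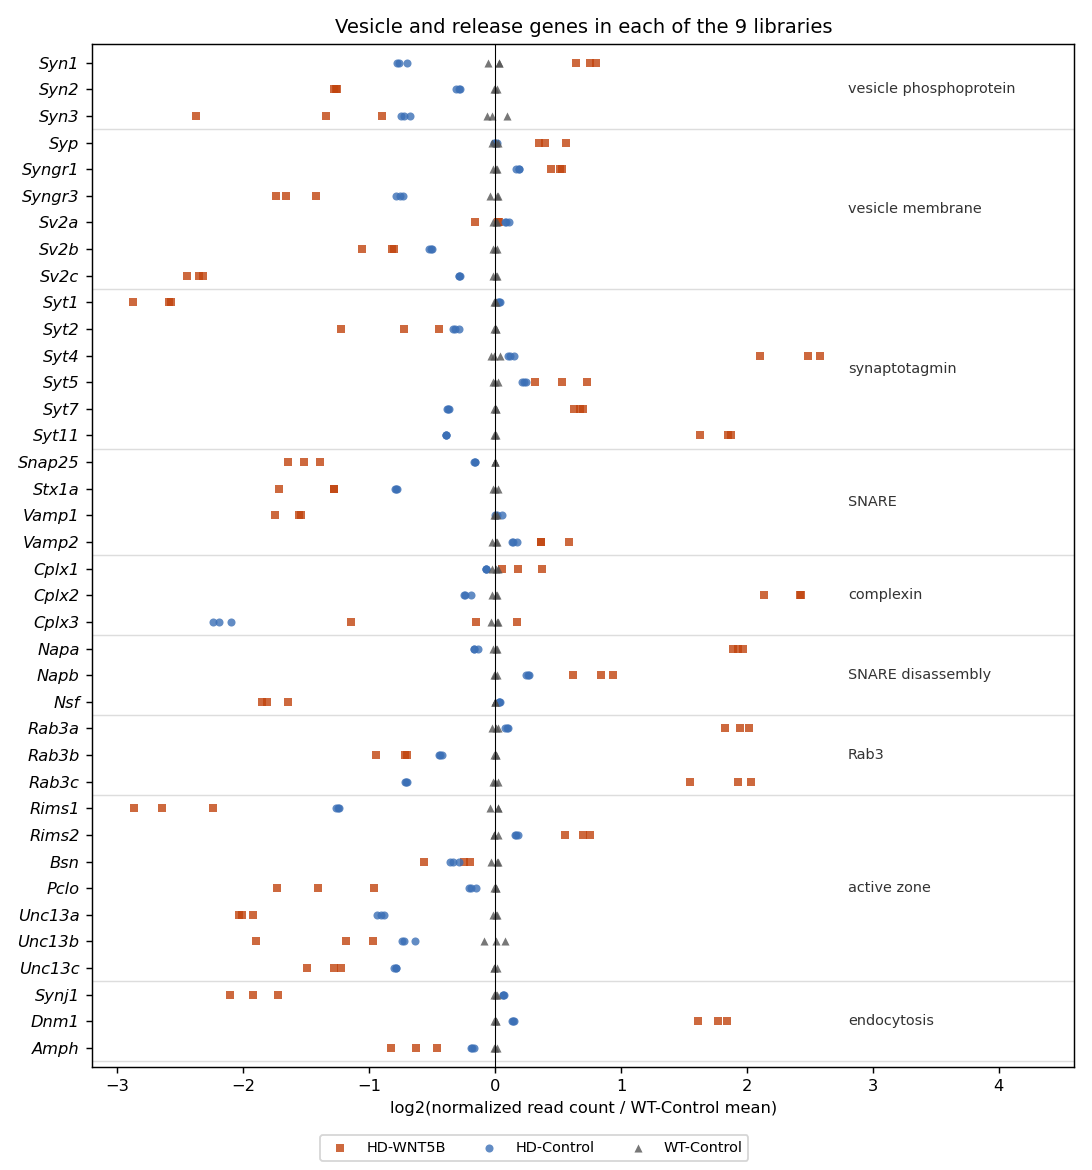
Each of the 9 libraries for the 38 genes, as log2 of the normalized read count over the mean of the WT-Control libraries; squares are HD-WNT5B, circles HD-Control and triangles WT-Control. HD-WNT5B libraries reach from below -2 for Sv2c, Syt1 and Rims1 to above 2 for Syt4 and Cplx2, and their points scatter more widely within a gene than those of the other groups.

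**Figure D3:**
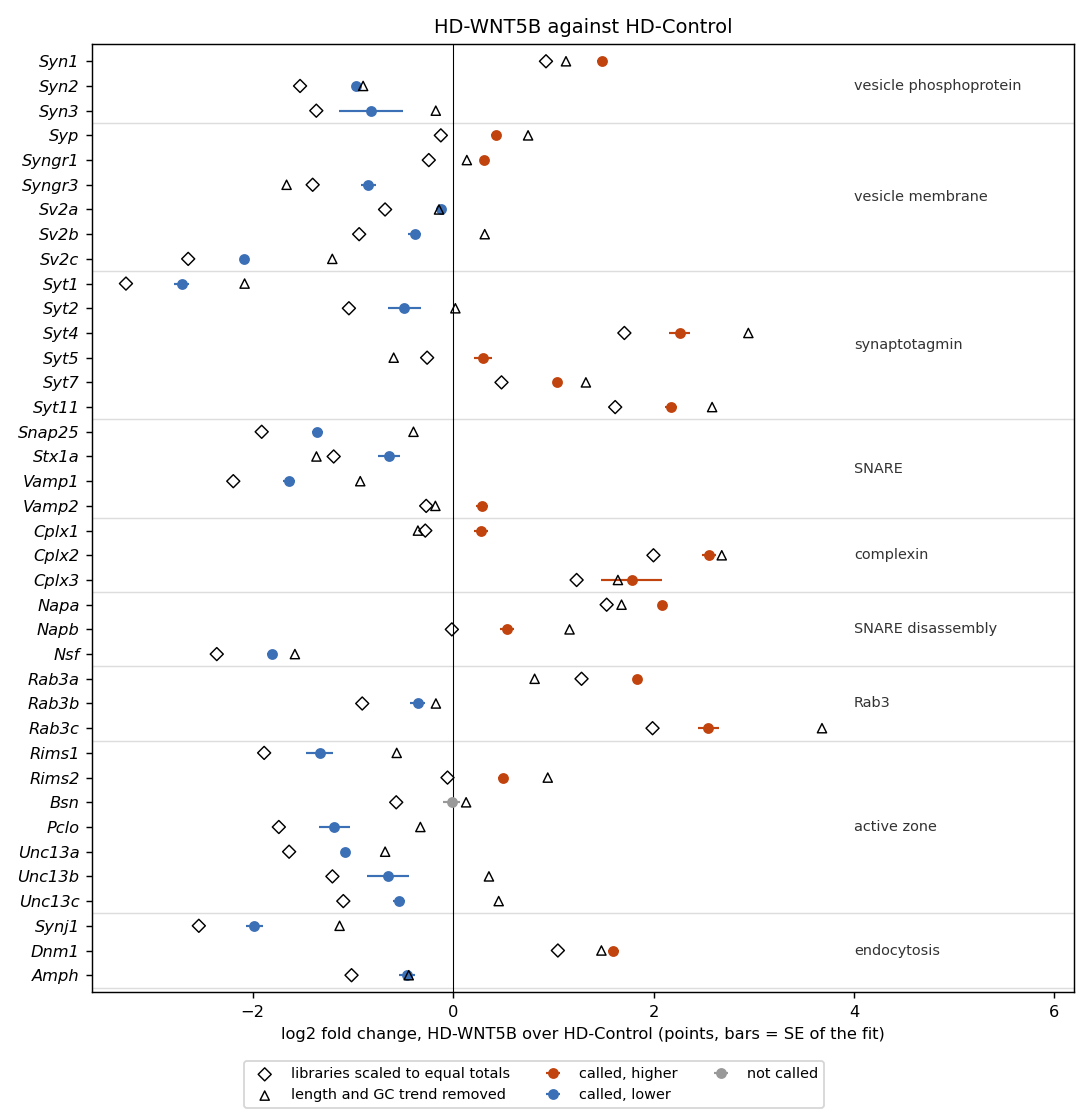
Log2 fold change of HD-WNT5B over HD-Control with the standard error of the limma fit (filled circles), beside the same change with libraries scaled to equal totals (diamonds) and with the transcript length and GC trend removed (triangles). The 10 genes that rose at least 2-fold stay right of 0 on all 3 scales, while Syp, Syngr1, Syt5, Vamp2, Cplx1, Napb and Rims2 lie left of 0 with equal totals.

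The synapsins, phosphoproteins that tether vesicles into a reserve pool, moved apart. Syn1 read 30302, 33890 and 32803 in HD-WNT5B, 11309, 11429 and 11961 in HD-Control, and 19811, 19823 and 18657 in WT-Control libraries. The 3 groups did not overlap, with HD-Control lowest and HD-WNT5B highest. Syn1 fell by 0.75 on the log2 scale in HD-Control (SE 0.048, limma adjusted p = 7.63e-06) and was 1.48 higher in HD-WNT5B than in HD-Control (SE 0.048, adjusted p = 1.14e-08). Syn2 read 6446, 6361 and 6427 in HD-WNT5B, 12407, 12650 and 12687 in HD-Control, and 15381, 15623 and 15298 in WT-Control libraries. Again there was no overlap, but here HD-WNT5B was lowest, at 0.510 of the HD-Control mean (log2 -0.97, SE 0.026, adjusted p = 3.71e-09). Syn2 in HD-Control stood at 0.815 of the WT-Control mean (adjusted p = 4.48e-05). Syn3 was at 447, 329 and 161 in HD-WNT5B, 497, 524 and 504 in HD-Control and 797, 890 and 821 in WT-Control libraries. It was called lower in HD-WNT5B than in HD-Control (log2 -0.82, adjusted p = 0.0432), a call lost under 11 of 22 alternatives, and it was not called in HD-Control against WT-Control (adjusted p = 0.105). Of its exon bases, 14.1% are shared with Timp3 on the other strand, and the library kit does not keep the strand.

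Huntingtin is known to hold the repressor REST in the cytoplasm of neurons, and REST binds the RE1 element of neuronal genes such as Syn1. Syn1 and Syn2 were both lower in HD-Control than in WT-Control (log2 -0.75 and -0.29), and they moved apart in HD-WNT5B against HD-Control. The promoters of both are shown, and their bearing on either change was not tested. They are the 250 bases before the RefSeq gene start in GRCm38.p6, 5′ to 3′ on the gene's strand: Syn1 at chrX:20920919-20921168, minus strand, and the first Syn2 start at chr6:115134652-115134901, plus strand. In GENCODE M21 Syn1 starts at chrX:20921004, inside its window, and Syn2 at chr6:115134902, just after its window. Part of the Syn1 window thus lies within the GENCODE gene, and the distances below are from the RefSeq start. The capitals mark the left part of the RE1 element (TTCAGCACC), 232 to 224 bases before the start, and the cyclic AMP response element (TGACGTCA), 159 to 152 bases before it.
Syn1: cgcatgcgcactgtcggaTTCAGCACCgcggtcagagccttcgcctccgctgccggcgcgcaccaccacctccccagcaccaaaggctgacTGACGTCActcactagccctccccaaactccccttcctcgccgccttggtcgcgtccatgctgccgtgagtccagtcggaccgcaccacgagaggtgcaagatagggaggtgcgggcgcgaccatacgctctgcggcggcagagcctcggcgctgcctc
Syn2: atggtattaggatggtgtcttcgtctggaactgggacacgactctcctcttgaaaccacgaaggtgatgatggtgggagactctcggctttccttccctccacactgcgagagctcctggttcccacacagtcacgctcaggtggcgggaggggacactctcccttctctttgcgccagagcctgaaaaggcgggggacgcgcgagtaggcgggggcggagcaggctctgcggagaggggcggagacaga
Both strands were searched for these motifs and for the right part of the RE1 element (GGACAGNGC), none of which overlap. Only exact matches were counted, so a right part with a changed base was missed. In Syn1 such letters (ggtcagagc) stand shortly after TTCAGCACC, so a fuller RE1 element there is not excluded by the search. Promoters were found for 30 of the 38 genes, in 38 windows. TTCAGCACC occurred in Syn1 alone among them and in 0.301% of 32851 RefSeq promoter windows, TGACGTCA in Syn1 alone and in 1.55% of all windows, and GGACAGNGC in a promoter of Sv2b and in 1.52% of all windows. A match is a description of these letters, and no data on REST binding were used.

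Among the proteins of the vesicle membrane, Syngr3 and Sv2c were lower in both HD groups. Sv2c, the SV2 glycoprotein enriched in basal ganglia, read 2969, 2901 and 2713 in HD-WNT5B, 12230, 12136 and 12145 in HD-Control, and 14631, 14939 and 14862 in WT-Control libraries. The HD-WNT5B libraries lay far below the others, at 4.25-fold less than HD-Control (log2 -2.09, SE 0.038, limma adjusted p = 3.96e-10). HD-Control in turn was lower than WT-Control by 0.28 on the log2 scale (SE 0.038, adjusted p = 4.28e-04). Syngr3, a synaptogyrin that binds the dopamine transporter, read 2272, 2830 and 2389 in HD-WNT5B, 4382, 4554 and 4485 in HD-Control, and 7652, 7709 and 7360 in WT-Control libraries. It fell stepwise without overlap, with log2 -0.76 in HD-Control against WT-Control (adjusted p = 8.34e-05) and -0.85 in HD-WNT5B against HD-Control (adjusted p = 8.63e-06).

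Its relative Syngr1 went the other way on the deposited scale, with 34602, 36809 and 36281 in HD-WNT5B, 29098, 28600 and 28997 in HD-Control and 25613, 25682 and 25079 in WT-Control libraries. Syngr1 was the 1 gene called higher in HD-Control under all 23 alternatives (log2 0.18, SE 0.030, adjusted p = 0.0013), but its log2 change of 0.31 in HD-WNT5B against HD-Control became -0.24 with equal totals. Sv2b, a second SV2 protein, fell in HD-Control to 10856 ± 89.3, against 15464 ± 177 in WT-Control (mean ± SD, n = 3 each; log2 -0.51, limma adjusted p = 2.57e-04). In HD-WNT5B it was 8354 ± 799, below HD-Control (log2 -0.38), although removing the length and GC trend turned that change to 0.32. Sv2a, the broadly expressed SV2 protein, was at 26445 ± 1968 in HD-WNT5B, 28763 ± 286 in HD-Control and 27026 ± 344 in WT-Control. Its call against HD-Control (log2 -0.12, adjusted p = 0.0489) was lost under 10 of 23 alternatives. Syp, the abundant vesicle protein synaptophysin, was at 38053 ± 277 in HD-Control and 38029 ± 594 in WT-Control, with overlapping libraries (log2 0.0010, adjusted p = 0.991). Its HD-WNT5B mean of 51462 ± 4019 was higher than in HD-Control on the deposited scale (log2 0.43) and lower with equal totals (log2 -0.12, adjusted p = 0.0898). Syp shares 16.8% of its exon bases with the antisense gene Gm14703.

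The synaptotagmins ranged from the largest fall among the 38 genes in HD-WNT5B to rises of over 4-fold. Syt1, the calcium sensor for fast release in forebrain neurons, read 10875, 10730 and 8816 in HD-WNT5B, 66315, 65723 and 66064 in HD-Control, and 64683, 65041 and 64457 in WT-Control libraries. Both control groups lay close together, and HD-WNT5B was 6.51-fold below HD-Control (log2 -2.71, SE 0.072, limma adjusted p = 3.25e-09). HD-Control against WT-Control was not called for Syt1 (log2 0.029, adjusted p = 0.786). Syt4, an activity-induced synaptotagmin found on dense core and other secretory vesicles, read 74746, 69971 and 53777 in HD-WNT5B, 13890, 13436 and 13600 in HD-Control, and 12465, 12283 and 12878 in WT-Control libraries. Here HD-WNT5B was 4.85-fold above HD-Control (log2 2.26, SE 0.10, adjusted p = 1.08e-07), while HD-Control against WT-Control was not called (adjusted p = 0.394). Syt4 shares 14.5% of its exon bases with the antisense gene Gm26658.

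Syt11, an isoform that binds no calcium, read 199066, 202914 and 171333 in HD-WNT5B, 42348, 42318 and 42182 in HD-Control, and 55766, 55302 and 55056 in WT-Control libraries. It fell in HD-Control (log2 -0.39, SE 0.058, limma adjusted p = 7.66e-04) and was 4.52-fold higher in HD-WNT5B than in HD-Control (adjusted p = 3.47e-09). Syt7, a slow sensor for asynchronous release and facilitation, followed the same order at a smaller size, with 23913, 24343 and 23074 in HD-WNT5B, 11614, 11589 and 11525 in HD-Control, and 15059, 15060 and 14860 in WT-Control libraries. Its log2 change was -0.37 in HD-Control against WT-Control (adjusted p = 1.78e-05) and 1.04 in HD-WNT5B against HD-Control (adjusted p = 3.75e-09). The other two were less steady. Syt2, the fast sensor of many hindbrain and inhibitory neurons, was at 4117 ± 1081 in HD-WNT5B, 5624 ± 98.3 in HD-Control and 6980 ± 53.7 in WT-Control (n = 3 each). Its call against HD-Control (log2 -0.48, adjusted p = 0.0233) vanished with the length and GC trend removed (log2 0.023, adjusted p = 0.916). Syt5 was at 9535 ± 1366 in HD-WNT5B, 7715 ± 96.3 in HD-Control and 6582 ± 92.8 in WT-Control. Its log2 change of 0.30 in HD-WNT5B against HD-Control turned to -0.26 with equal totals and to -0.59 with the trend removed.

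Of the 4 SNARE proteins, 3 were lower in HD-WNT5B than in HD-Control. Snap25, the plasma membrane SNARE that botulinum toxin A cleaves, read 36160, 32994 and 30240 in HD-WNT5B, 84741, 84634 and 84189 in HD-Control, and 94576, 94597 and 94756 in WT-Control libraries. HD-WNT5B was 2.55-fold below HD-Control (log2 -1.35, SE 0.056, limma adjusted p = 5.29e-08), and with the length and GC trend removed the log2 change was -0.39 (adjusted p = 2.96e-05). The groups HD-Control and WT-Control did not overlap, but that call (log2 -0.16, adjusted p = 0.0438) was lost under 11 of 23 alternatives. Stx1a, the syntaxin of the plasma membrane, read 1721, 1272 and 1724 in HD-WNT5B, 2435, 2409 and 2428 in HD-Control, and 4181, 4237 and 4133 in WT-Control libraries. It fell in HD-Control (log2 -0.79, SE 0.11, adjusted p = 5.07e-04) and was lower again in HD-WNT5B (log2 -0.64 against HD-Control, adjusted p = 6.20e-04).

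The 2 synaptobrevins parted. Vamp1 read 1955, 1699 and 1939 in HD-WNT5B, 5776, 5931 and 5700 in HD-Control, and 5660, 5760 and 5694 in WT-Control libraries. HD-WNT5B lay 3.11-fold below HD-Control (log2 -1.64, limma adjusted p = 1.74e-08), while HD-Control and WT-Control overlapped (log2 0.024, adjusted p = 0.773). Vamp2, the main synaptobrevin of forebrain synapses, was at 72032 ± 6597 in HD-WNT5B, 58905 ± 764 in HD-Control and 53064 ± 732 in WT-Control. Its log2 change of 0.29 in HD-WNT5B against HD-Control was -0.27 with equal totals and -0.18 with the length and GC trend removed.

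The complexins bind the assembled SNARE complex, and Cplx2 rose in HD-WNT5B about as far as Rab3c, described below. Cplx2 read 658586, 656337 and 537837 in HD-WNT5B, 103361, 103806 and 106976 in HD-Control, and 123107, 123681 and 120482 in WT-Control libraries. The HD-WNT5B mean was 5.90-fold that of HD-Control (log2 2.55, SE 0.072, limma adjusted p = 4.94e-09), and no library of another group came near it. In HD-Control, Cplx2 was lower than in WT-Control (log2 -0.23, adjusted p = 0.0334), a call lost when any 1 HD-Control or WT-Control library was left out. Cplx3, a complexin of ribbon synapses and of deep cortical neurons, was low throughout, at 681, 273 and 545 in HD-WNT5B, 132, 141 and 128 in HD-Control, and 611, 590 and 612 in WT-Control libraries. It stood 4.52-fold lower in HD-Control than in WT-Control (log2 -2.15, SE 0.30, adjusted p = 5.43e-04) and rose in HD-WNT5B against HD-Control (log2 1.78, SE 0.30, adjusted p = 5.87e-04). HD-WNT5B and WT-Control overlapped for Cplx3 (log2 -0.37, adjusted p = 0.285). Cplx1 was at 31682 ± 3472 in HD-WNT5B, 26037 ± 55.4 in HD-Control and 27419 ± 442 in WT-Control, and its log2 change of 0.28 against HD-Control was -0.28 with equal totals and -0.35 with the length and GC trend removed.

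The proteins that take the SNARE complex apart did not move as one. Nsf, the ATPase itself, read 8732, 8531 and 9821 in HD-WNT5B, 31331, 31573 and 31464 in HD-Control, and 30759, 30710 and 30743 in WT-Control libraries. It was 3.48-fold lower in HD-WNT5B than in HD-Control (log2 -1.80, SE 0.049, limma adjusted p = 3.85e-09). Napa, the adaptor alpha-SNAP that recruits NSF, read 38977, 41263 and 40012 in HD-WNT5B, 9562, 9348 and 9379 in HD-Control, and 10613, 10548 and 10420 in WT-Control libraries. That is 4.25-fold higher in HD-WNT5B than in HD-Control (log2 2.09, SE 0.030, adjusted p = 1.10e-10), after a small fall in HD-Control against WT-Control (log2 -0.16, SE 0.030, adjusted p = 0.00253). Napb, the neuronal beta-SNAP, was at 37072 ± 4117 in HD-WNT5B, 25346 ± 181 in HD-Control and 21196 ± 183 in WT-Control. It was called higher in HD-Control (log2 0.26, adjusted p = 0.0161), and its log2 change of 0.54 in HD-WNT5B against HD-Control was -0.012 with equal totals.

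Rab3 proteins are small GTPases on the vesicle that bind RIM. Rab3a, the main isoform in brain, read 72128, 82015 and 78281 in HD-WNT5B, 21870, 21635 and 21481 in HD-Control, and 20616, 20452 and 19921 in WT-Control libraries. It was 3.58-fold higher in HD-WNT5B than in HD-Control (log2 1.84, SE 0.045, limma adjusted p = 2.05e-09), and HD-Control against WT-Control was not called (log2 0.092, adjusted p = 0.135). Rab3c read 115929, 107574 and 82864 in HD-WNT5B, 17236, 17430 and 17299 in HD-Control, and 27948, 28269 and 28670 in WT-Control libraries. The groups did not overlap: Rab3c fell in HD-Control (log2 -0.71, SE 0.10, adjusted p = 7.34e-04) and was 5.90-fold higher in HD-WNT5B than in HD-Control (adjusted p = 5.05e-08). Rab3b, at 1379 ± 129 in HD-WNT5B, 1757 ± 17.1 in HD-Control and 2374 ± 17.2 in WT-Control, was lower in each of the 3 comparisons (log2 -0.43 in HD-Control against WT-Control, adjusted p = 0.00149; log2 -0.35 in HD-WNT5B against HD-Control, adjusted p = 0.00199). With the length and GC trend removed its change in HD-WNT5B against HD-Control was -0.17 (adjusted p = 0.0485), a call lost when the replicate block was added. It shares 9.0% of its exon bases with an antisense gene.

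At the active zone 5 of 7 genes were lower in HD-Control than in WT-Control, and Rims2 was higher. Rims1, the RIM scaffold that links Rab3, Munc13 and calcium channels, read 1962, 1484 and 1276 in HD-WNT5B, 3932, 3906 and 3870 in HD-Control, and 9039, 9440 and 9423 in WT-Control libraries. It dropped without overlap to 2.38-fold less in HD-Control than in WT-Control (log2 -1.25, SE 0.13, limma adjusted p = 1.09e-04) and to 2.48-fold less in HD-WNT5B than in HD-Control (log2 -1.33, SE 0.13, adjusted p = 1.68e-05). Its paralog Rims2 stood at 11312 ± 780 in HD-WNT5B, 7990 ± 63.4 in HD-Control and 7106 ± 86.2 in WT-Control. The rise of Rims2 in HD-Control (log2 0.17, adjusted p = 0.0211) was lost under 6 of 23 alternatives, and its log2 change of 0.50 in HD-WNT5B against HD-Control was -0.055 with equal totals.

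Unc13a, the main Munc13 of forebrain synapses, which opens syntaxin and primes vesicles, read 6876, 6345 and 6478 in HD-WNT5B, 13612, 14142 and 13923 in HD-Control, and 26276, 26143 and 25774 in WT-Control libraries. HD-Control stood 1.88-fold below WT-Control (log2 -0.91, SE 0.036, limma adjusted p = 7.96e-07), and HD-WNT5B 2.12-fold below HD-Control (log2 -1.08, SE 0.036, adjusted p = 1.29e-08). Unc13c, a Munc13 best known from cerebellum, read 6507, 6745 and 5616 in HD-WNT5B, 9136, 9060 and 9171 in HD-Control, and 15687, 15715 and 15996 in WT-Control libraries. It fell in HD-Control (log2 -0.79, SE 0.062, adjusted p = 2.16e-05), and its fall in HD-WNT5B against HD-Control (log2 -0.54) turned to 0.46 with the length and GC trend removed. Unc13b was at 917 ± 282 in HD-WNT5B, 1392 ± 55 in HD-Control and 2263 ± 132 in WT-Control. Its call in HD-Control (log2 -0.70, SE 0.21, adjusted p = 0.0238) was lost when any 1 HD-Control or WT-Control library was left out, and its log2 change of -0.65 in HD-WNT5B against HD-Control was 0.36 with the trend removed.

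The giant scaffolds Bsn (bassoon) and Pclo (piccolo) differed. Bsn read 24802, 25682 and 19952 in HD-WNT5B, 23051, 23446 and 24142 in HD-Control, and 29865, 29884 and 28758 in WT-Control libraries. It was lower in HD-Control than in WT-Control (log2 -0.33, SE 0.084, limma adjusted p = 0.0134), and it was the 1 gene of the 38 not called in HD-WNT5B against HD-Control (log2 -0.013, adjusted p = 0.898). Without the third HD-WNT5B library, the lowest of its group, Bsn was called higher (log2 0.10, adjusted p = 0.0147), and with equal totals it was called lower (log2 -0.57, adjusted p = 8.35e-05). Pclo read 7843, 10633 and 6242 in HD-WNT5B, 18168, 18014 and 18669 in HD-Control, and 20597, 20816 and 20900 in WT-Control libraries. It was 2.22-fold lower in HD-WNT5B than in HD-Control (log2 -1.18, SE 0.16, adjusted p = 1.22e-04), a call lost with the length and GC trend removed, and it was not called in HD-Control against WT-Control (adjusted p = 0.388).

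The 3 endocytosis genes were not called in HD-Control against WT-Control, with log2 changes of 0.065 for Synj1, 0.14 for Dnm1 and -0.18 for Amph and adjusted p of 0.563, 0.0588 and 0.0974. None of the 3 overlapped between these groups. With a weight per group all 3 were called, Synj1 and Dnm1 higher and Amph lower (limma adjusted p = 0.00135, 1.97e-08 and 2.04e-07). In HD-WNT5B they split. Dnm1, the neuronal dynamin that severs vesicles from the membrane, read 112827, 132156 and 126056 in HD-WNT5B, 40560, 40652 and 40887 in HD-Control, and 37197, 37049 and 36632 in WT-Control libraries. It was 3.04-fold higher in HD-WNT5B than in HD-Control (log2 1.60, SE 0.052, limma adjusted p = 1.14e-08). Synj1, the lipid phosphatase that uncoats clathrin vesicles, read 5983, 5203 and 4585 in HD-WNT5B, 20645, 20651 and 20676 in HD-Control, and 19774, 19558 and 19897 in WT-Control libraries. It was 3.93-fold lower in HD-WNT5B than in HD-Control (log2 -1.98, SE 0.081, adjusted p = 4.77e-08). Amph, which recruits dynamin, was lower as well, at 3660 ± 457 in HD-WNT5B, 5006 ± 48.1 in HD-Control and 5678 ± 55.4 in WT-Control (log2 -0.46 against HD-Control, adjusted p = 6.69e-04).

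Ratios of related genes within a library do not depend on how libraries are scaled, and 13 such ratios were compared. They still carry the length and GC trend described below, and they were not computed with it removed. In HD-WNT5B against HD-Control its removal moved Vamp1 from log2 -1.64 to -0.93 and Vamp2 from 0.29 to -0.18. It left Sv2a nearly unchanged (-0.12 and -0.14) and turned Sv2b from -0.38 to 0.32. With 3 libraries against 3, the smallest p of an exact two-sided permutation test is 0.1, so no ratio could pass a threshold of 0.05. In HD-Control against WT-Control all 13 ratios were without overlap, yet only Rims1/Rims2 changed at least 2-fold, with 0.494, 0.492 and 0.480 in HD-Control and 1.28, 1.34 and 1.31 in WT-Control libraries. In HD-WNT5B against HD-Control 12 of 13 ratios were without overlap and 10 changed at least 2-fold. Ratios of other gene pairs were not computed, so these counts have no share to stand beside. Of all single genes tested, 84% did not overlap in HD-Control against WT-Control and 78.7% in HD-WNT5B against HD-Control. Syt1/Syt4 changed most, with 0.145, 0.153 and 0.164 in HD-WNT5B, against 4.77, 4.89 and 4.86 in HD-Control and 5.19, 5.30 and 5.01 in WT-Control libraries. Per kilobase of transcript, Syt4 (17000 ± 2824) stood above Syt1 (2104 ± 238 normalized reads) in HD-WNT5B, and Syt4 (3505 ± 59.0) stood below Syt1 (13700 ± 61.6) in HD-Control.

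Among the other ratios, Syn1/Syn2 was 5.04 ± 0.318 in HD-WNT5B, 0.919 ± 0.0208 in HD-Control and 1.26 ± 0.0353 in WT-Control (n = 3 each). Napa/Napb was 1.09 ± 0.12 in HD-WNT5B, 0.372 ± 0.00437 in HD-Control and 0.497 ± 0.0089 in WT-Control. All 3 libraries of HD-WNT5B lay above both other groups for these ratios. Sv2a/Sv2c was 9.27 ± 1.02 in HD-WNT5B, 2.36 ± 0.032 in HD-Control and 1.82 ± 0.0334 in WT-Control, and Syngr1/Syngr3 was 14.5 ± 1.27 in HD-WNT5B, 6.46 ± 0.18 in HD-Control and 3.36 ± 0.04 in WT-Control. Cplx1/Cplx2 was 0.0522 ± 0.012 in HD-WNT5B, 0.249 ± 0.00411 in HD-Control and 0.224 ± 0.000933 in WT-Control. The exceptions to the separation were Unc13a/Unc13b in HD-WNT5B against HD-Control (exact p = 0.4) and Rab3a/Rab3c in HD-WNT5B against WT-Control (exact p = 0.7).

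**Figure D4:**
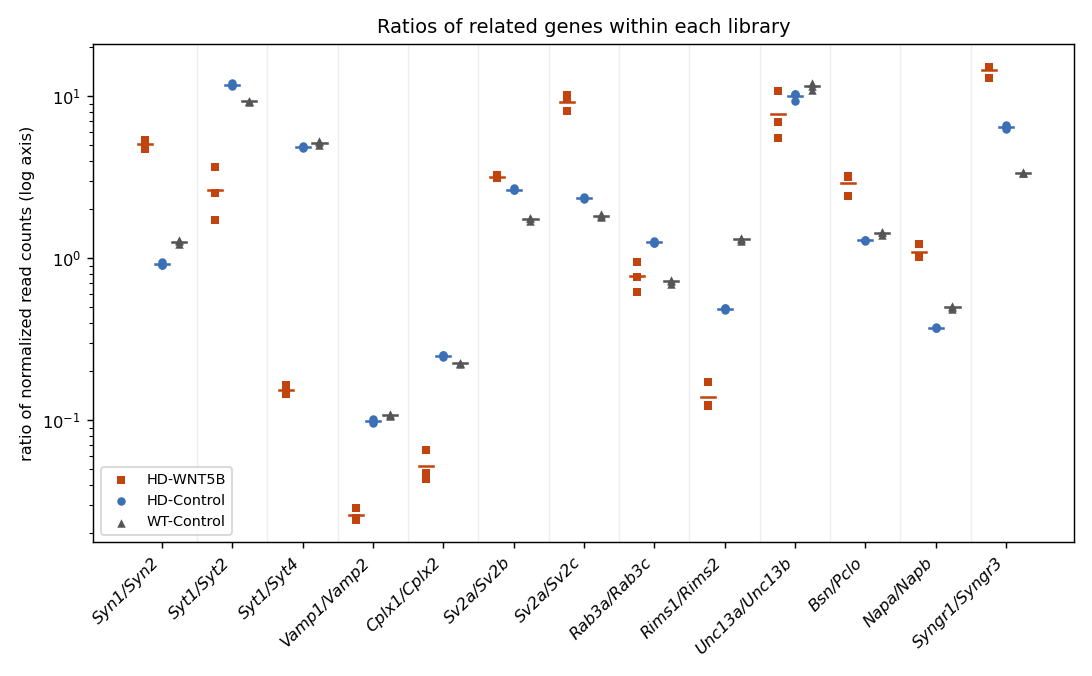
Ratio of the normalized read counts of 2 related genes in each library on a log axis, with HD-WNT5B (squares), HD-Control (circles) and WT-Control (triangles) side by side and the group mean as a bar. Syt1/Syt4 lies at 0.145 to 0.164 in HD-WNT5B and at 4.77 to 5.30 in the other 6 libraries, and Rims1/Rims2 steps down over the groups from right to left.

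Levels of different genes were set side by side per kilobase of the longest annotated transcript, which need not be the one expressed. These levels still carry the length and GC trend described below, and places were not computed with it removed. In HD-WNT5B against HD-Control its removal moved Rab3a from log2 1.84 to 0.81, Snap25 from -1.35 to -0.39 and Syt1 from -2.71 to -2.08. In WT-Control libraries Cplx2 (24842 ± 346 normalized reads per kilobase) and Vamp2 (24065 ± 332) were highest, followed by Snap25 (19394 ± 20.2). Syt1 (13429 ± 61.1) and Syp (13376 ± 209) came next and did not differ beyond their spread. The lowest were Cplx3 (211 ± 4.46), Syn3 (175 ± 10.1) and Unc13b (153 ± 8.94). In HD-Control the order was similar, with Vamp2 (26715 ± 347) above Cplx2 (21249 ± 400 normalized reads per kilobase). In HD-WNT5B the order differed: Cplx2 (125322 ± 14017), Rab3a (49791 ± 3209) and Syt11 (38069 ± 3432 normalized reads per kilobase) led. Rab3a held place 2 there, place 4 in HD-Control and place 6 in WT-Control, while Syt1 was at place 20 in HD-WNT5B, 5 in HD-Control and 4 in WT-Control, and Snap25 was at place 14 in HD-WNT5B and 3 in the other groups.

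**Figure D5:**
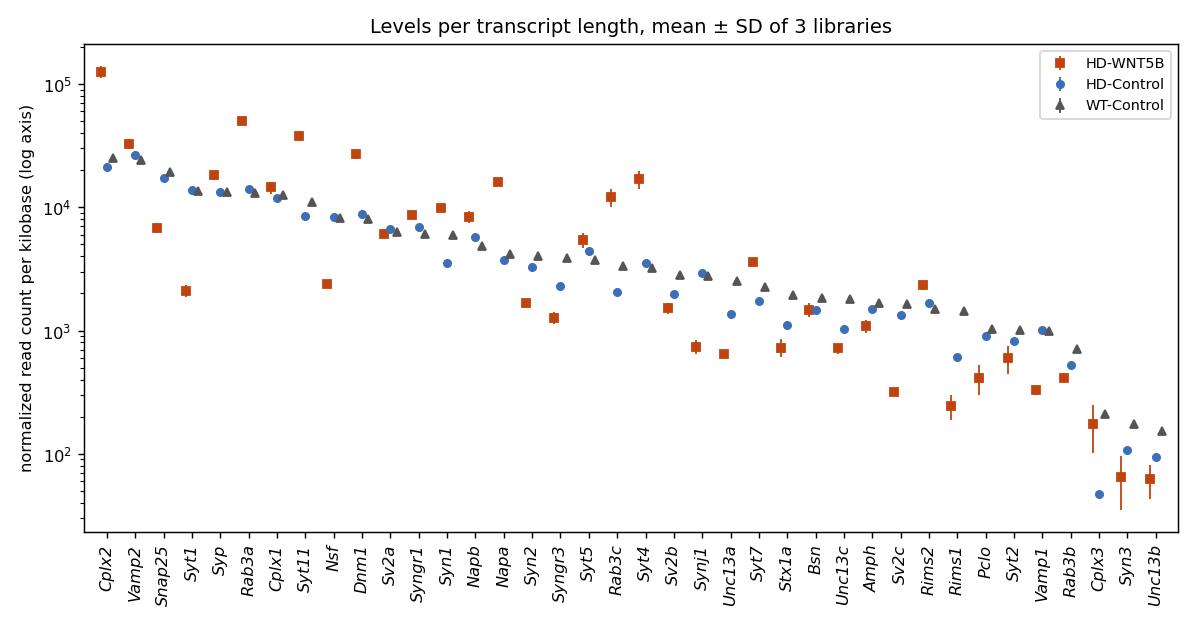
Normalized read count per kilobase of the longest transcript for the 38 genes, mean ± SD of 3 libraries on a log axis, ordered by the WT-Control mean, with HD-WNT5B (squares), HD-Control (circles) and WT-Control (triangles). Cplx2 reaches 125322 in HD-WNT5B, while Syt1, Nsf, Synj1 and Sv2c lie far below their control levels.

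Transcript length and base composition moved with the change in HD-WNT5B. Across all 15411 genes, Spearman's rho between the log2 change in HD-WNT5B against HD-Control and transcript length was -0.35, and with GC content 0.28. Across the 38 genes, which share the same libraries, these were -0.32 and 0.23. In HD-Control against WT-Control, they were -0.046 and -0.0049 across all genes, and -0.28 and -0.023 across the 38. These are descriptions across genes, which are not independent replicates. With the length and GC trend removed from each library, the median change of the 38 genes in HD-WNT5B against HD-Control was -0.059. Of the genes that kept their direction, 14 then moved by over 1.5-fold. Nearer to 0 were Syt1 (log2 -2.08), Sv2c (-1.21), Synj1 (-1.13), Vamp1 (-0.93), Rims1 (-0.56), Snap25 (-0.39), Rab3a (0.81) and, no longer called, Pclo (-0.33) and Syn3 (-0.17). Farther from 0 were Rab3c (log2 3.68), Syt4 (2.95), Napb (1.16), Syngr3 (-1.66) and Stx1a (-1.36).

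Other genes of the same machinery were counted beside the 38. In HD-Control against WT-Control, 19 of 47 further vesicle and release genes tested were lower and 9 higher, with a median log2 change of -0.17. That is 40.4% lower and 19.1% higher, beside 20.7 and 24.5% of all genes tested. Cadps, the priming factor of dense core vesicles, was at 5105 ± 70.2 in HD-Control and 8770 ± 91.0 in WT-Control (n = 3 each; log2 -0.78, limma adjusted p = 1.29e-06). Of 25 further vesicle endocytosis genes, 8 were lower and 8 higher (32% each). Ap2a2, a subunit of the clathrin adaptor AP-2, was higher (log2 0.87, adjusted p = 8.10e-07), and Synj2, a second synaptojanin, lower (log2 -1.33, adjusted p = 2.72e-04). In HD-WNT5B against HD-Control, 19 of the 47 release genes were higher and 23 lower (40.4 and 48.9%), and 10 of the 25 endocytosis genes were higher and 13 lower (40 and 52%). These shares stand near the 43.7% higher and 46.1% lower among genes that average 1000 or more. Of all genes tested, 35.8% were higher and 41.7% lower. Nrxn2 read 80007, 80484 and 65203 in HD-WNT5B and 11081, 11564 and 11756 in HD-Control libraries (log2 2.71, adjusted p = 4.74e-09). Ap2s1, the small AP-2 subunit, had the largest rise of the endocytosis genes, at 61229 ± 5409 in HD-WNT5B and 4091 ± 69.1 in HD-Control (log2 3.90, adjusted p = 2.30e-10).

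Genes that mark the neurons carrying these vesicles moved too, and their part in the results above was not tested. The counts that follow stand beside 20.7% lower and 24.5% higher among all genes tested. In HD-Control against WT-Control 10 of 14 cortical excitatory neuron markers were lower and none higher, and their summed values were 59019 to 60291 in HD-Control and 102590 to 105550 in WT-Control libraries. Of 15 pan-neuronal genes 10 were lower and 1 higher, although their sums were 612930 to 614070 in HD-Control and 613360 to 614990 in WT-Control libraries. Within these sums Snhg11 was higher, at 243712 ± 689 in HD-Control and 170743 ± 1918 in WT-Control. Map2 was lower, at 51912 ± 205 in HD-Control and 77266 ± 1060 in WT-Control. Of 15 striatal projection neuron markers 10 were lower and 4 higher, with sums of 589710 to 595280 in HD-Control and 699660 to 703670 in WT-Control libraries. Slc17a7, which loads glutamate into vesicles of cortical neurons, was at 7595, 7664 and 7674 in HD-Control, against 17839, 17748 and 17151 in WT-Control libraries (log2 -1.20, SE 0.048, limma adjusted p = 7.96e-07). Slc17a6, the transporter of subcortical glutamate neurons, was low, at 65.4 ± 6.2 in HD-Control and 315 ± 14.0 in WT-Control (log2 -2.22, adjusted p = 5.88e-05). It belongs to the thalamic, midbrain and hindbrain neuron list, of which 6 genes were tested, 2 lower and 2 higher. Of the other lists, all 10 microglia, 9 of 10 oligodendrocyte, 7 of 10 astrocyte, 6 of 10 endothelial and mural and 5 of 12 interneuron markers were lower in HD-Control than in WT-Control, and 1 astrocyte marker was higher. With a weight per group, 10 of 12 interneuron markers were lower in that comparison and 1 was higher, beside 39.9 and 43.1% of all genes tested. Slc32a1, the transporter for GABA and glycine, was at 14670 ± 145 in HD-Control and 13802 ± 707 in WT-Control and was not called (adjusted p = 0.191).

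In HD-WNT5B against HD-Control the neuronal lists split within themselves, as the 38 genes did. Of all genes tested there, 35.8% were higher and 41.7% lower. Of 15 pan-neuronal genes 10 were higher and 4 lower: Uchl1, a ubiquitin hydrolase abundant in neurons, was at 105226 ± 2432 in HD-WNT5B and 15500 ± 215 in HD-Control (log2 2.76, limma adjusted p = 2.53e-11), and Tubb3, neuronal beta-tubulin, was at 1750 ± 68.1 in HD-WNT5B and 9921 ± 184 in HD-Control (log2 -2.50, adjusted p = 1.84e-10). The pan-neuronal sums were 957270 to 1022000 in HD-WNT5B and 612930 to 614070 in HD-Control libraries. As shares of the summed values they were 1.2 to 1.22% in HD-WNT5B and 1.1% in HD-Control. Of the striatal projection neuron markers 4 were higher and 7 lower of 15, with sums of 643370 to 667520 in HD-WNT5B and 589710 to 595280 in HD-Control libraries. As shares of the summed values the striatal markers were lower in HD-WNT5B, at 0.797 to 0.805%, than in HD-Control, at 1.06 to 1.07%. Foxp1 was at 214709 ± 20347 in HD-WNT5B and 25472 ± 199 in HD-Control, and Pde10a at 9265 ± 1889 and 69148 ± 51.0. Of the cortical excitatory neuron markers 5 were higher and 4 lower of 14, with sums of 379650 to 407620 in HD-WNT5B and 59019 to 60291 in HD-Control libraries, and Nrgn, a calmodulin-binding protein of forebrain neurons, was among the higher (log2 3.47, adjusted p = 2.72e-11). Slc17a7 was at 16052, 15422 and 14063 in HD-WNT5B libraries, above HD-Control (log2 0.99, adjusted p = 1.40e-07). The 10 microglia markers summed to 46053 to 50846 in HD-WNT5B, 13541 to 13641 in HD-Control and 30834 to 31202 in WT-Control libraries. Against HD-Control 7 of them were higher in HD-WNT5B and none lower, and against WT-Control 5 were higher and 5 lower, beside 35.9 and 42.1% of all genes tested. Cx3cr1, the fractalkine receptor, made up much of that sum, at 19940 ± 1666 in HD-WNT5B, 588 ± 13.4 in HD-Control and 4765 ± 30.7 in WT-Control. P2ry12, a purinergic receptor of resting microglia, was at 508 ± 99.7 in HD-WNT5B, 390 ± 25.9 in HD-Control and 2431 ± 75.01 in WT-Control. The 10 oligodendrocyte markers summed to 839420 to 888600 in HD-WNT5B, 363120 to 365580 in HD-Control and 496830 to 501830 in WT-Control libraries, with 7 higher and 3 lower in HD-WNT5B than in HD-Control. The 10 astrocyte markers summed to 142610 to 148100 in HD-WNT5B, 212990 to 214640 in HD-Control and 336230 to 339350 in WT-Control libraries, although 4 of them were higher and 4 lower in HD-WNT5B than in HD-Control. Slc1a2, the main astrocyte glutamate transporter, was at 33822 ± 1147 in HD-WNT5B, 111245 ± 608 in HD-Control and 208774 ± 2205 in WT-Control, while Sox9, an astrocyte transcription factor, was at 9963 ± 1570 in HD-WNT5B, 1627 ± 39.5 in HD-Control and 1742 ± 65.9 in WT-Control. With equal totals, Csf1r (log2 -0.79), Mbp (-0.26), Gja1 (-0.67) and Aldoc (-0.60) were called lower in HD-WNT5B than in HD-Control, P2ry12 was not called there (-0.19), and Trem2 was not called against WT-Control (-0.011). No marker of these lists was at 0 in all libraries.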

How the data were processed

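The authors deposited 1 decimal value per protein-coding gene and library, a signal in normalized read counts. From the values themselves these are estimated reads divided by 1 factor per library: 1 read is worth 1.606 to 2.144 in HD-WNT5B, 0.616 to 0.797 in HD-Control and 0.704 to 0.808 in WT-Control libraries, and 92.6 to 96.9% of values are whole multiples of it within 0.02 read. Reads were aligned with STAR to mm10, per the submitters' processing notes. How reads were counted and normalized, and with which versions, is not given in the sources used here. GENCODE M21 supplied symbols, lengths, GC content and exon overlaps.

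Log2 of the value plus 3 was fitted with limma 3.58.1 (R 4.3.3), a mean per group over 9 libraries (6 residual degrees of freedom) and a trend of variance on mean, over 15411 genes. Fold changes of low genes are understated by the added 3. Genes were called at Benjamini-Hochberg adjusted p under 0.05, and the procedure was tested on simulated data. Few genes were changed in that simulation, and it held no length and GC trend and no difference in summed values between groups. It therefore does not cover these features of the HD-WNT5B libraries. The 38 genes, the context lists and the ratios were chosen with earlier results of these data known. Values per library are given for the genes with the largest calls and those whose direction differs between comparisons. Genes named from context lists are among the 4 with the smallest p per comparison, or are transporters and markers. A count model had been planned for whole counts and was not used, because the values are normalized decimals. Alternatives covered scale, filter, added constant, weights, replicate block, length and GC, and single libraries left out.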

Additional observations from a re-analysis of the deposited data

How the results depend on the processing

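Medians of the 38 genes in HD-Control against WT-Control were -0.23 with equal totals or trimmed-mean factors, -0.27 with upper-quartile factors, -0.18 with the length and GC spline removed (with and without the replicate block) and -0.18 among genes that average 1000 or more, an alternative chosen after seeing the data. The called count was 35 with a weight per group and 36 with only the groups compared, and 17 to 30 with 1 library left out. Over all genes, 6957 calls became 12779 and 12858 under those 2 alternatives, and 5421 to 8949 with 1 library left out. Those medians with 1 library left out were -0.22 to -0.20. In HD-WNT5B against HD-Control the median was -0.79 with equal totals and -0.059 with the spline removed (also with the block), and -0.26 to -0.17 with 1 library left out, when 33 to 38 of the 38 genes and 11063 to 12532 of all genes were called. Against WT-Control it was -1.08, -0.30 and -0.61 to -0.50, with 35 or 36 of the 38 genes and 11210 to 12621 of all genes called.

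Reversed directions against HD-Control were, with equal totals, Syp -0.12, Syngr1 -0.24, Syt5 -0.26, Vamp2 -0.27, Cplx1 -0.28, Napb -0.012 and Rims2 -0.055, and, with the spline removed (same values with the replicate block), Sv2b 0.32, Syt2 0.023, Syt5 -0.59, Vamp2 -0.18, Cplx1 -0.35, Unc13b 0.36 and Unc13c 0.46. Bsn, at -0.013, ran from -0.082 to 0.10 with 1 library left out and was called higher without the third HD-WNT5B library and lower with equal totals (-0.57). Against WT-Control they were, with equal totals, Syp -0.15, Syngr1 -0.086, Syt5 -0.056, Vamp2 -0.14 and Cplx1 -0.38, and, with the spline removed (block included), Syt5 -0.40, Vamp2 -0.056 and Cplx1 -0.45. The log2 change of Rab3a/Rab3c, at 0.091, ran from -0.061 (without the third HD-WNT5B library) to 0.24. The causes were not tested. Ratios without overlap numbered 13, 12 to 13 and 12 to 13 with 1 library left out.

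Replicate numbers did not pair libraries (correlations of deviations -0.023 to 0.024). With the replicate block, 6402 genes were called in HD-Control against WT-Control, and the calls of Snap25 there and of Sv2a in HD-WNT5B against HD-Control were lost. Count tests on recovered reads were not run, because the values hold fractions of a read. Low genes such as Syn3, Cplx3 and Unc13b rest on the fewest reads.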
